A study of Mus musculus with 6 samples.

Results

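Nodal, the activin subunits and their inhibitors were followed as 8 genes: Lefty1, Lefty2, Nodal, Fst, Fstl1, Fstl3, Inhba and Inhbb. They were taken by gene symbol from the array's annotation, which gave 13 probe sets of the 45037 that were not controls, with 5 genes read by 2 probe sets each and 3 genes by 1. The family was chosen by its intensities in RA + Ag1.3 against RA cultures on these same arrays, so those differences are given as a description and support nothing by themselves.

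The cells were neuralized embryoid bodies, floating clusters formed by mouse embryonic stem cells. All 6 cultures came from a stem cell line with a Gli1-FLAG transgene driven constitutively from the Rosa26 promoter, so the controls carried this hedgehog pathway transcription factor as well. The RA + Ag1.3 group was given 500 nM all-trans retinoic acid plus 50 nM Ag1.3, an agonist of the hedgehog transducer Smoothened, for 3 days, starting after 2 days in suspension. The RA group was given the same retinoic acid for the same time without the agonist. Each group had 3 cultures, and each RA + Ag1.3 culture had an RA culture grown in parallel, which makes 3 pairs. No label says that the pairs came from different lines, so they are repeats of 1 line.

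Nodal and the activins are secreted ligands of the TGF-beta superfamily that bind type I and type II activin receptors and act through Smad2 and Smad3 in the cell. Nodal also needs an EGF-CFC co-receptor such as Tdgf1 (Cripto), and Lefty1 and Lefty2 are secreted antagonists that block this step and are themselves switched on by Nodal signalling in the early embryo. Follistatin, the product of Fst, binds activins and keeps them from their receptors, and Fstl3 does the same with a smaller protein. In the mouse embryo Nodal keeps the epiblast from early neural differentiation, and Lefty1 is later found on the left side of the prospective floor plate.

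Promoter sequences are shown for Nodal, the ligand on which the pathway turns, and for Fstl1, the member that read higher with Ag1.3, as the 250 bases upstream of the RefSeq start (GRCm38.p6, both on the plus strand). Capitals mark GC boxes (GGGCGG, either strand), the only one of 3 motifs that was present in either window.
Nodal, chr10:61417722-61417971: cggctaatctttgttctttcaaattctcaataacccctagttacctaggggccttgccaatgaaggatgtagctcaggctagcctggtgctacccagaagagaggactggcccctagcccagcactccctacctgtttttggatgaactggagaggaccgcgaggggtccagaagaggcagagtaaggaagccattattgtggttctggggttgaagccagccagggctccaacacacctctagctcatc
Fstl1, chr16:37776805-37777054: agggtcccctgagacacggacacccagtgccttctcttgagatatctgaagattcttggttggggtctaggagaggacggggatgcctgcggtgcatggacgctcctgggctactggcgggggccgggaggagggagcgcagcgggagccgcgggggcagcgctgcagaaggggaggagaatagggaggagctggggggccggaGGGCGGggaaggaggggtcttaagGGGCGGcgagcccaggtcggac
The Fstl1 window held 2 GC boxes and was 68.0% G and C, and the Nodal window held 0 and was 53.2% G and C, against a median of 52.4% over 32851 such windows. A GC box was present in 32.7% of those windows. The Gli motif GACCACCC (0.703% of windows) and the Foxh1 motif AATNNACA (10.9%), each searched on both strands, were in neither window. A promoter window was available for 5 of the 8 members (Nodal, Fstl1, Fstl3, Inhba and Inhbb), and not for Lefty1, Lefty2 and Fst.

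Array medians ran from 48.68 to 52.55, and hybridization spikes read 0.19 higher on the log2 scale on RA + Ag1.3 arrays. The agonist was visible in Ptch1, the hedgehog receptor and a direct target of the pathway, which rose 2.35-fold (adjusted p = 0.0232 in limma's test, 0.132 without the replicate block, and 0.064 to 0.114 without 1 of the pairs). Gli1, whose probe set may also read the transgene, had a log2 difference of 1.21 with adjusted p = 0.0795. In limma's test 256 of 18193 genes passed the threshold, 197 higher and 59 lower with Ag1.3, which is 1.41% of genes. Of the 8 members, 3 were among them, Fst, Lefty1 and Lefty2, all lower, where 0.324% of all genes were lower and 1.08% higher past the threshold. Among single probe sets 3 of the 13 passed, those of Lefty1, the second of Nodal and the second of Fst, beside 0.515% of all probe sets. This count uses the contrast by which the family was picked, so nothing is read from it. No member was past the threshold without the replicate block, without pair 1 or without pair 2, and without pair 3 Fst alone was. Whole cultures were measured, so fewer cells of a type and less RNA per cell cannot be told apart.

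Among the antagonists, Fst differed most. The probe set chosen for it, 1434458_at, read 26.36, 25.47 and 58.10 in RA + Ag1.3 cultures 1 to 3, against 126.44, 121.65 and 123.12 in RA cultures 1 to 3. The groups did not overlap, and the RA cultures lay within 1.04-fold of each other while RA + Ag1.3 culture 3 stood above the other two. The mean was 36.6 ± 18.6 with Ag1.3 and 124 ± 2.45 in RA (SD, n = 3 each), a log2 difference of -1.46 with SE 0.18. The second Fst probe set, 1421365_at, read 19.85, 18.66 and 28.20 in RA + Ag1.3 cultures and 70.06, 81.47 and 80.14 in RA cultures, with a log2 difference of -1.29 and SE 0.10. The mean intensity with Ag1.3 was 3.38-fold lower by the first probe set and 3.47-fold lower by the second. The RA + Ag1.3 values of the second probe set reached down into the background range, where folds depend on the pseudocount. Over the alternatives the log2 difference of Fst ran from -1.83 to -0.91.

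**Figure D1:**
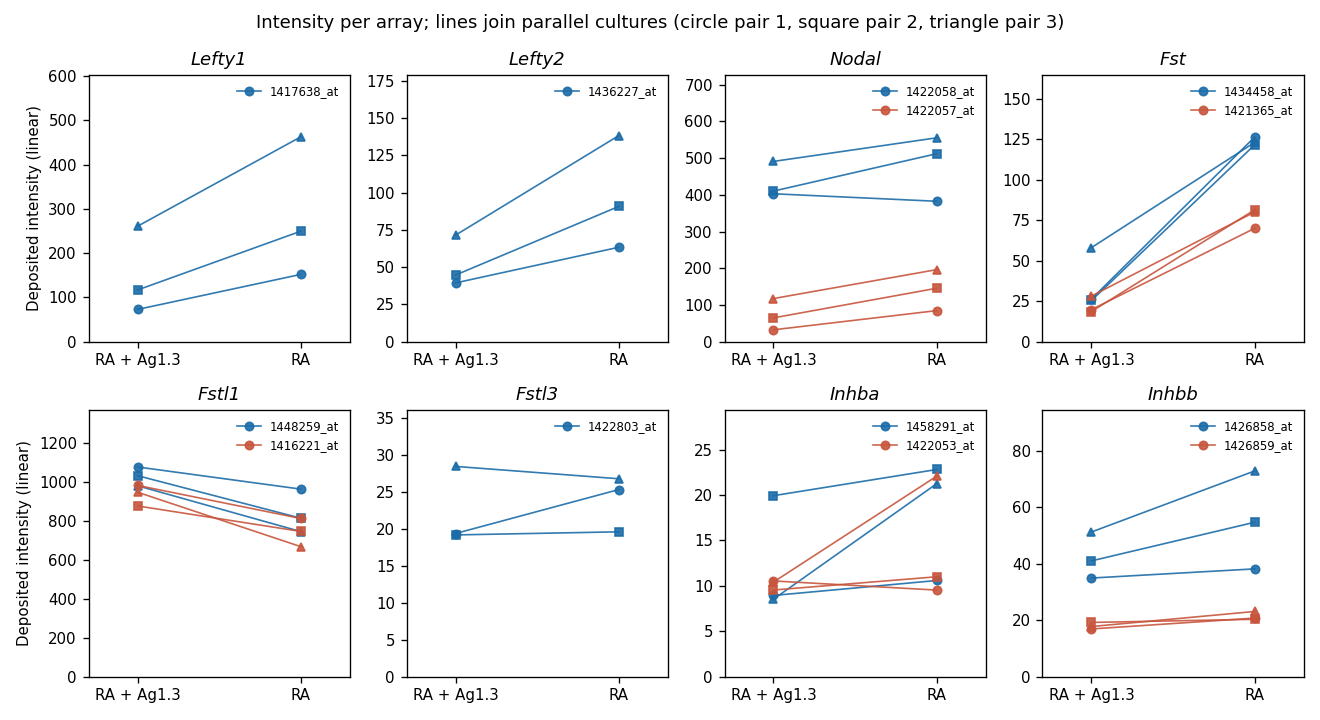
Deposited intensity (linear scale from 0) of each probe set of the 8 members on each of the 6 arrays, RA + Ag1.3 at the left and RA at the right of each panel, with lines joining the parallel cultures of a pair and colours marking the probe sets of a gene. Fst separates the groups with both probe sets, Lefty1, Lefty2 and Nodal 1422057_at are lower with Ag1.3 within each pair while the groups overlap, and Fstl1 is higher with Ag1.3 in each pair.

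Lefty1 read 72.95, 116.92 and 260.91 in RA + Ag1.3 cultures 1 to 3, against 152.13, 249.74 and 462.95 in RA cultures 1 to 3. The groups overlapped, since RA + Ag1.3 culture 3 was above RA cultures 1 and 2, but each RA + Ag1.3 culture was below its own parallel culture. The log2 difference was -0.90 with SE 0.08, and the smallest difference within a pair was -0.79, in pair 3. Lefty2 had the same order of pairs within each treatment. It read 39.43, 44.69 and 71.42 in RA + Ag1.3 cultures and 63.33, 90.71 and 138.20 in RA cultures. Its groups overlapped as well, and the log2 difference was -0.72 with SE 0.09, with -0.52, -0.81 and -0.82 in the single pairs. Lefty1 and Lefty2 are closely related in sequence, and whether a probe set of one also reads the other is not given in the sources used here.

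The 2 probe sets of Nodal disagreed. The one chosen for the gene, 1422058_at, read 403.01, 410.31 and 491.15 in RA + Ag1.3 cultures and 382.58, 512.23 and 555.50 in RA cultures. Pair 1 went the other way from pairs 2 and 3, and the log2 difference was -0.14 with SE 0.10. The second, 1422057_at, read 32.48, 65.04 and 117.61 in RA + Ag1.3 cultures and 84.79, 145.74 and 196.44 in RA cultures. It was lower with Ag1.3 in all 3 pairs, by a log2 difference of -0.91 with SE 0.11, close to the -0.90 of Lefty1. Its groups overlapped through RA + Ag1.3 culture 3. The platform annotation gives both probe sets the same accession, and it does not say which part of the transcript each one reads. A statement on the level of Nodal therefore depends on the probe set, and the mean of both gave -0.52.

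The activin subunits read at or not far above background. Inhba encodes the beta A subunit of activin A, and both of its probe sets averaged below the highest unspiked control in both groups, from 10.2 to 12.5 with Ag1.3 and from 14.2 to 18.2 in RA. No difference could be read at that level. Inhbb, which encodes the beta B subunit, read 34.90, 40.98 and 51.22 in RA + Ag1.3 cultures and 38.15, 54.68 and 72.87 in RA cultures by 1426858_at. Each pair was lower with Ag1.3, the groups overlapped, and the log2 difference was -0.27 with SE 0.09. The second Inhbb probe set averaged 17.9 ± 1.17 with Ag1.3 and 21.4 ± 1.49 in RA (SD, n = 3 each), next to background, and its groups did not overlap.

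Fstl1, a secreted glycoprotein that shares the follistatin domain but is best known as a regulator of BMP signalling, was the 1 member that read higher in every pair. Probe set 1448259_at read 1075.17, 1030.59 and 978.89 in RA + Ag1.3 cultures and 961.57, 812.13 and 743.52 in RA cultures. The groups did not overlap, and the log2 difference was 0.30 with SE 0.08. The other Fstl1 probe set, 1416221_at, averaged 934 ± 53.7 with Ag1.3 and 741 ± 72.3 in RA (SD, n = 3 each), a log2 difference of 0.33 with SE 0.09. Scaling the arrays to the hybridization spikes, which lowered the median of all genes to -0.16, left 0.11 for 1448259_at. Fstl3 averaged 22.3 ± 5.30 with Ag1.3 and 23.9 ± 3.79 in RA, with overlapping groups, pairs of both signs and a log2 difference of -0.06 with SE 0.09.

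**Figure D2:**
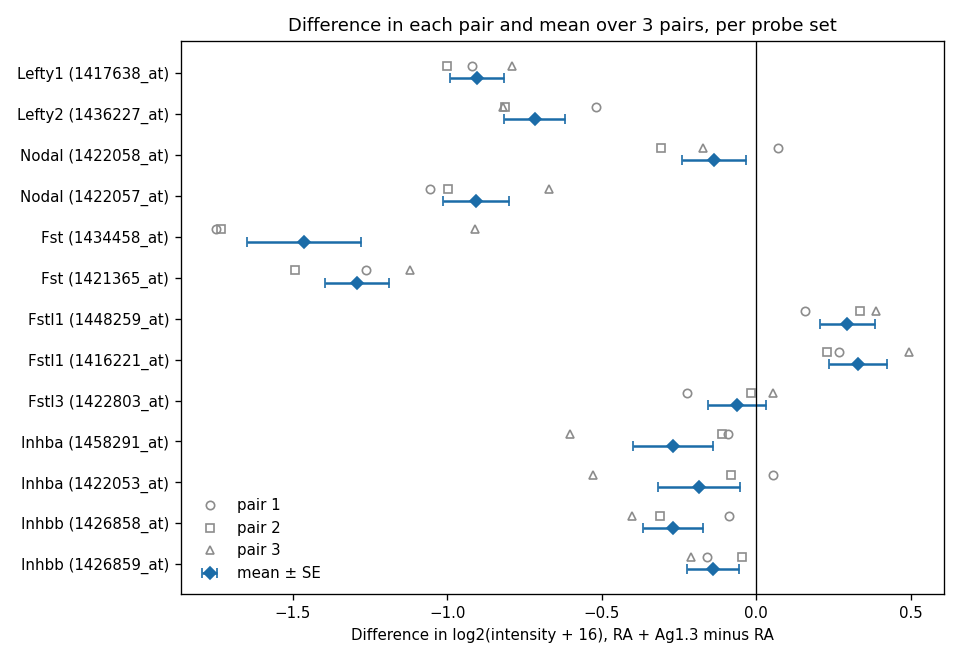
Difference in log2(intensity + 16), RA + Ag1.3 minus RA, for each of the 13 probe sets: open symbols are the 3 pairs, diamonds the mean over pairs with bars of 1 SE from the fit over all probe sets. The differences run from -1.46 for Fst to 0.33 for Fstl1, and the 2 Nodal probe sets lie apart at -0.14 and -0.91.

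By the chosen probe sets, 5 of the 8 members were lower with Ag1.3 in all 3 pairs, 1 was higher in all 3 and 2 were mixed, while 19.5% of all genes were lower and 17.2% higher in all 3 pairs. Groups did not overlap for 2 of the 8 members, Fst and Fstl1, as for 11.8% of all genes, and for 5 of the 13 probe sets, as for 11.2% of all probe sets. The median log2 difference of the members was -0.27, beside -0.01 over all 18193 genes. These counts describe the family and again use the contrast by which it was picked.

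Whether the pairs of cultures differ in level was tested in the same fit with limma's F-test on the pair terms. The F-test shares its residual variance with the contrast by which the members were picked, so it is not independent of that choice. Of all genes 2.33% passed, and of the members 1 did. Among single probe sets the same one was past the threshold, where 0.209% of all probe sets were. Lefty1 differed between pairs with adjusted p = 0.0257, and pair 3 was 3.58-fold above pair 1 in RA + Ag1.3 cultures and 3.04-fold in RA cultures. That call was lost without pair 1, without pair 3 and with a pseudocount of 1, and it held in 7 of 10 alternatives. Lefty2 had the same order of pairs with adjusted p = 0.0571, and passed in 3 of 9 alternatives. For Nodal 1422057_at, among all probe sets, adjusted p was 0.0600, with pair 3 again highest in both treatments.

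Fst did not follow that order in RA, where its 3 cultures were almost equal. Its pair test gave adjusted p = 0.452 by 1434458_at, and it passed in 0 of 9 alternatives. Across the 6 arrays Lefty1 correlated with Lefty2 at r = 0.965, with Nodal 1422057_at at 0.980 and with Inhbb 1426858_at at 0.956, and with Fst 1434458_at at 0.725. Lefty2 and Fstl1 1448259_at had r = -0.965. These correlations are descriptions over 6 arrays that share the pairs and the treatment.

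**Figure D3:**
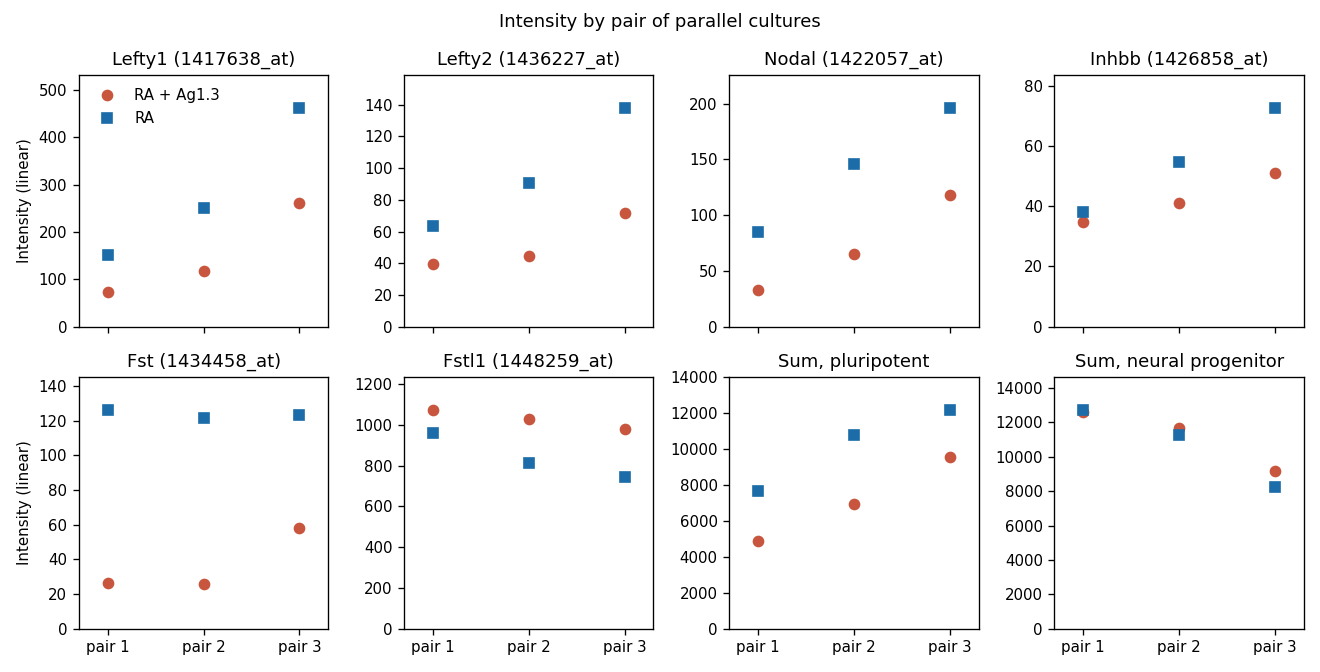
Intensity (linear scale from 0) in each pair of parallel cultures for 6 member probe sets, and the summed intensity of the pluripotent and neural progenitor marker lists, with circles for RA + Ag1.3 and squares for RA. Lefty1, Lefty2, Nodal 1422057_at, Inhbb and the pluripotent sum are highest in pair 3 in both groups, the neural progenitor sum is lowest there, and Fst in RA is level at 121.65 to 126.44.

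Over all genes, 2717 of 18193 (14.9%) had an unadjusted p under 0.05, the share beside which such counts stand in the lists that follow. Of pluripotent cell markers, all 13 measured of 14 listed had a value below 0, with a median log2 difference of -0.58, 1 past the threshold over all genes (Pou5f1, which fell by 0.68 on the log2 scale, adjusted p = 0.0420 in limma's test) and 11 with an unadjusted p under 0.05. Their summed intensity was 4853 to 9556 in RA + Ag1.3 cultures and 7650 to 12199 in RA cultures, and no marker was near background. For Pou5f1 the adjusted p was 0.799 with no replicate block and 0.0796 to 0.236 when 1 of the pairs was left out. Between pairs, 5 of the 13 differed past the threshold, and their sum was highest in pair 3 in both treatments. The endoderm sum was also highest in pair 3 in both treatments, where 4 of 13 markers (Krt8, Krt18, Epcam and Cubn) differed between pairs, and so was the mesoderm sum, with 0 of 9 past limma's threshold between pairs. Neural progenitor markers had 0 of 8 past limma's threshold with the agonist (4 had an unadjusted p under 0.05), and 5 of 8 differed between pairs. The neural sum was 9169 to 12593 in RA + Ag1.3 cultures and 8271 to 12749 in RA cultures, lowest in pair 3. Such sums weigh bright genes most, as Dppa5a among pluripotent markers, Krt18 among endoderm ones and Vim and Sox2 among neural ones. Within the endoderm list Gata4, Hnf4a, Afp and Apoa1 were highest in pair 3 in at most 1 treatment, and the other markers in both. Within the neural list Fabp7 went the other way and was highest in pair 3 in both treatments. Sox2 was lowest in pair 3 in RA but in pair 2 with Ag1.3 (adjusted p = 0.747 between pairs in limma's F-test). The other neural markers were lowest in pair 3 in both treatments. The part of pluripotent or endoderm cells in the levels of Lefty1, Lefty2, Nodal and Inhbb was not tested.

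Floor plate markers are of interest because Lefty1 is known from that tissue. Of 7 measured, 5 rose and 0 fell, and Ferd3l had a log2 difference of -0.26 and was lower in all 3 pairs (adjusted p = 0.338). The list had a median of 1.55 on the log2 scale and a summed intensity of 2013 to 3363 in RA + Ag1.3 cultures and 925 to 1077 in RA cultures. The secreted matrix protein Spon1 rose 6.65-fold, the guidance ligand Slit3 3.73-fold and the heparan sulfate editing enzyme Sulf1 2.74-fold, with adjusted p = 0.00293, 0.00378 and 0.0104 in limma's test. Sulf1 did not pass without pair 3 (0.0796) or without the replicate block (0.489). Of endoderm markers 1 of 13 fell, the keratin Krt8, which fell by 0.62 on the log2 scale (adjusted p = 0.0445, but 0.106 to 0.253 without 1 of the pairs and 0.857 without the replicate block), and the median was -0.01. An unadjusted p under 0.05 was found for 3 of the 13, Krt8, Krt18 and Epcam, all lower. In the list 8 values were below 0 and 5 above. The endoderm sum was 767 to 1895 in RA + Ag1.3 cultures and 1051 to 2280 in RA cultures, with Afp and Apoa1 near background. Mesoderm markers had 0 of 9 past limma's threshold (2 had an unadjusted p under 0.05), a median of -0.15 and Foxc2 near background. Their sum was 320 to 404 in RA + Ag1.3 cultures and 276 to 397 in RA cultures.

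The rest of the pathway was read from 5 lists of 53 genes, of which 49 had a probe set with that symbol alone. In limma's test 2 of the 49 passed, beside 1.41% of all genes. Both are genes known as Nodal targets, Foxa2 higher and Sox17 lower, and Foxa2 is also a floor plate factor. An unadjusted p under 0.05 was found for 12 of the 49 (14.9% of all genes had one), and the median log2 difference was 0.03. Among receptors and co-receptors 0 of 9 passed, with 3 at an unadjusted p under 0.05. Tdgf1, the Nodal co-receptor, read 102.12, 181.65 and 402.69 in RA + Ag1.3 cultures and 235.84, 467.03 and 591.85 in RA cultures. It was lower in all 3 pairs with overlapping groups, a log2 difference of -0.97 and SE 0.15, and adjusted p = 0.0593. Its level differed between pairs with adjusted p = 0.0437 in limma's F-test, with pair 3 highest as for Lefty1. The type I and type II activin receptors Acvr1b, Acvr1c, Acvr2a and Acvr2b had log2 differences of 0.07, 0.12, -0.02 and 0.20. Tgfbr3, a TGF-beta co-receptor, had 0.34 with adjusted p = 0.243, and its second probe set gave 0.16.

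Among related ligands 0 of 8 passed, with 1 at an unadjusted p under 0.05. That gene was Gdf3, a ligand of early embryonic cells that also signals through the EGF-CFC co-receptors, with 158 ± 50.1 with Ag1.3 and 223 ± 70.2 in RA (SD, n = 3 each), a log2 difference of -0.45 and adjusted p = 0.0810. Its second probe set gave -0.04. Gdf3 differed between pairs with adjusted p = 0.0437 and was likewise highest in pair 3. Tgfb1 had a log2 difference of -0.17 and adjusted p = 0.498.

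Of Smads, their partners and regulators 0 of 14 passed, with 2 at an unadjusted p under 0.05. Tgif1, a corepressor that limits Smad2 responses, read 330 ± 35.3 with Ag1.3 and 426 ± 38.5 in RA (SD, n = 3 each), a log2 difference of -0.35 with adjusted p = 0.104. Smad3 had 0.24 with adjusted p = 0.285, and its other probe sets gave 0.05 and 0.09. Smad2, Smad4 and Foxh1, the DNA-binding partner of the Smads at Nodal targets, had -0.09, 0.03 and -0.08. Among other extracellular antagonists and the proprotein convertases that cleave these ligands, 0 of 12 passed, with 4 at an unadjusted p under 0.05. Tmeff1, a membrane protein that binds Tdgf1 and inhibits Nodal signalling in frog embryos, averaged 1111 ± 63.6 with Ag1.3 and 869 ± 49.8 in RA (SD, n = 3 each). The groups did not overlap, and the log2 difference was 0.35 with adjusted p = 0.147. By the second Tmeff1 probe set it was 0.14. Pcsk5, a convertase, had 0.31 with adjusted p = 0.184, and its other probe sets gave 0.05, 0.10, -0.05 and 0.06.

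The genes known as Nodal targets split. Of 6 measured, 1 rose and 1 fell. Foxa2, a transcription factor of both floor plate and endoderm, rose to 406 ± 180 with Ag1.3, against 66.6 ± 36.6 in RA (SD, n = 3 each, adjusted p = 0.00371 in limma's test, 0.091 without the replicate block). Sox17, a factor of definitive endoderm, fell to 52.0 ± 35.7 with Ag1.3, against 138 ± 67.3 in RA (adjusted p = 0.0158). Sox17 did not pass without pair 1, 2 or 3, where its log2 difference was -1.28, -1.07 and -1.28 beside -1.21 with all pairs, and its second probe set gave -0.47. Without the replicate block its adjusted p was 0.526. Eomes and Mixl1, factors of mesendoderm, had log2 differences of 0.38 and 0.25, and Gsc and Otx2 were near background in both groups.

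**Figure D4:**
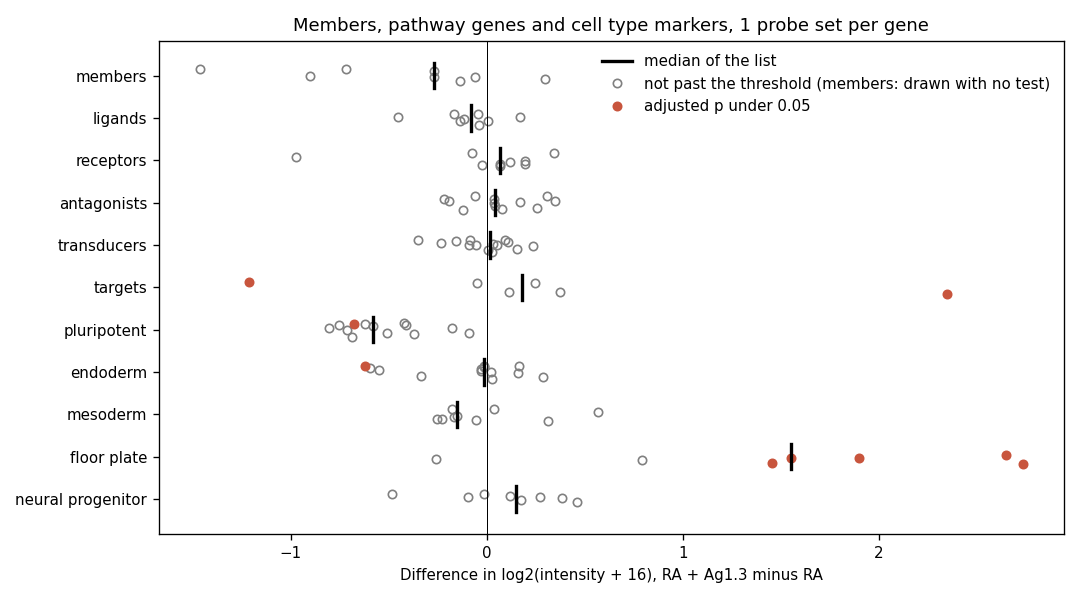
Difference in log2(intensity + 16), RA + Ag1.3 minus RA, for each gene of the members, 5 pathway lists and 5 marker lists, with the median of each list as a bar and filled points for genes with adjusted p under 0.05 (members are drawn with no test). Most pathway genes lie near 0, with Tdgf1 at -0.97, and the pluripotent markers lie below 0 with a median of -0.58.

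By the likeness of their profiles over the 6 arrays, the genes closest to Lefty1 were Plp2, Dhx16 and Hspb1, with Pearson r of 0.998, 0.997 and 0.997 among 9096 other genes at or above the median intensity. For Lefty2 they were Ghitm, Capns1 and Dbf4 (0.998, 0.992 and 0.992), for Nodal 1422058_at Hip1r, Ier2 and Sap130 (0.992, 0.983 and 0.980), and for Fst Lsm1, Dhx32 and Thumpd3 (0.998, 0.992 and 0.991). Fstl1 was closest to Cdk5r1, Midn and Cd24a (0.997, 0.994 and 0.990), and Inhbb to Zfp961, Hat1 and Ube2a (0.997, 0.989 and 0.987). Fstl3 was closest to Taf6l, Acsl5 and Mettl1 (0.989, 0.984 and 0.978), and Inhba, at background, to Cmtm5, Abcb10 and Usp10 (0.980, 0.974 and 0.949). The number of genes above 0.95 was 371 for Lefty1, 135 for Lefty2, 88 for Fstl1, 72 for Inhbb, 64 for Fst, 30 for Nodal, 16 for Fstl3 and 2 for Inhba. With 6 arrays and this many candidate genes, a high r can be reached by selection alone. The profiles also carry the treatment contrast by which the members were picked. How many unrelated genes would pass 0.95 was not computed, so nothing is read from these counts.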

How the data were processed

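Total RNA of 6 cultures was labelled with biotin by a 3' IVT express kit and read on an Affymetrix array with 1 array per culture, per the labels. The authors deposited 1 intensity per probe set and array, not logged. How these were summarized and scaled, and the genome build, is not given in the sources used here. Of 45101 rows, 64 controls were left out. The platform annotation paired 34945 of the other 45037 with 1 gene symbol, 932 with several and did not list 9160. For 18193 genes, the probe set whose mean across all 6 arrays was highest stood for the gene. All 13 probe sets of the members were also fitted among the 45037.

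Values were transformed to log2(intensity + 16) and fitted with limma 3.58.1 in R 4.3.3 (lmFit, eBayes, two-sided), with pair and treatment as terms. Adjusted p follows Benjamini-Hochberg across the whole table, and 0.05 was the threshold. SE is limma's moderated standard error. It comes from the fit over genes for the probe set chosen for a gene, and from the fit over all probe sets for a second one. The design text describes parallel cultures, and deviations of same-numbered arrays from their group means correlated across genes at 0.54, 0.19 and 0.56, against -0.51 to 0.07 for arrays of different number. The p-values therefore rest on the spread between 3 pairs of cultures of 1 cell line, and precision is limited by there being 6 arrays. They do not measure a gene's own spread alone, since limma draws each variance toward a value shared by all genes. The smallest SE over all genes was 0.07. An intensity up to 20.71, the highest of the unspiked Trp control probe sets, was read as close to background. Fold changes on this scale understate the change of dim genes.

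The members, the pathway and marker lists and the tests were chosen with earlier results of these data known. Genes named were all members, up to 4 passing genes of each pathway list (where none passed, those 2 of lowest p), up to 3 of each marker list past the threshold, Ptch1 and Gli1, and the 3 genes most correlated with each member. Acvr1b, Acvr1c, Acvr2a, Acvr2b, Smad2, Smad4, Foxh1, Eomes, Mixl1, Gsc, Otx2, Gata4, Hnf4a, Afp, Apoa1, Foxc2, Ferd3l, Krt18, Epcam, Cubn, Dppa5a, Vim, Sox2 and Fabp7 fall outside that rule and were named after their values were seen. The fit was run on simulated data with the same noise SD for every gene, so that run does not cover noise that changes with intensity. The alternatives were 2 other pseudocounts, no replicate block, a filter on dim genes, a variance prior that follows intensity, 2 other scalings, the mean of probe sets, and leaving out each pair.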

Additional observations from a re-analysis of the deposited data

How the results depend on the processing

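The members kept the sign of their log2 difference in all 10 or 11 alternatives each could enter, except Fstl3, which was 0.02 without pair 1. Their median, -0.27, was -0.44 with a pseudocount of 1, -0.14 with 64, and -0.36 to -0.16 without 1 of the pairs. Above the median intensity only 3 members were left, Lefty1, Nodal and Fstl1, and their median of -0.14 was the value of Nodal. Of the 8, 0 passed with a pseudocount of 1 (5 at an unadjusted p under 0.05) and 0 without the replicate block (3), and 0 to 1 passed without 1 of the pairs. With a prior that follows intensity 4 passed, and 4 with the spikes, beside 3 in the main fit. These counts use the contrast by which the family was picked, so nothing is read from them. Genes changed with Ag1.3 numbered 0 with a pseudocount of 1 (2412 at an unadjusted p under 0.05), 819 with 64, 87 without the replicate block, 904 above the median intensity, 888 with a prior that follows intensity, and 40 to 68 without 1 of the pairs. Scaled to the spikes they numbered 1666, with 286 higher and 1380 lower, against 197 higher and 59 lower. Probe sets changed numbered 232, and 0 (4601), 839, 108, 1155, 1118 and 1539 in the same order ending with the spikes, and 0 to 12 without 1 of the pairs, where 0 stood beside 3623 and 5969 at an unadjusted p under 0.05. Genes differing between pairs numbered 423, and 0 (2993) with a pseudocount of 1, 1481 with 64, 1552 above the median intensity, 1621 with the prior that follows intensity, 1463 with the spikes, and 0 to 463 without 1 of the pairs. Pathway genes changed numbered 2, and 0 with a pseudocount of 1 (9), 6 with 64, 0 without the replicate block (7), 5 above the median intensity, 6 with the prior, 6 with the spikes, and 1 without each of the pairs. Leaving out pairs removes arrays and the filter removes genes, and the cause of the other shifts was not tested. Members near background, Inhba and Fstl3, are limited by signal.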
